A study of Mus musculus with 2 samples.

Results

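Genes of peripheral myelin and of Schwann cells were compared between gastrocnemius muscle held in a plaster cast and control muscle. They are 8 genes, namely myelin basic protein (Mbp), periaxin (Prx), peripheral myelin protein 22 (Pmp22), Mal, Sox10, Egr2, S100b and L1cam, chosen as the array probes that carry these gene names and are not control spots. All 8 were on the array, with 11 probes among 39418 probes with a value, and all 8 belonged to the 15142 named genes measured on both arrays, meaning that a probe was well above background on each by the scanner software's call. Both groups were male C57BL/6 mice aged 9 weeks. The cast group had its hindlimbs immobilised, and so unloaded, for 11 days, and the control group is described only as control. RNA of the gastrocnemius, the large calf muscle, was pooled within each group before use, with N = 6 given for each group, and each pool went to 1 single-colour array. With 1 array a group there is no replicate and no test. A difference is given as log2(cast/control) after each array was scaled to its 75th percentile, and a fold of 2 stands in for a test threshold.

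Schwann cells are the glia of peripheral nerve. In a muscle they lie in the intramuscular nerve branches, where some wrap motor and sensory axons in myelin, and at the neuromuscular junction, where unmyelinated terminal Schwann cells cap the nerve ending. Sox10 is the lineage transcription factor of these cells and acts with Egr2 (Krox20) to switch on genes of the myelin sheath, among them Mbp, Pmp22 and Prx. RNA of whole muscle holds only a small share of nerve RNA, and in such bulk samples fewer Schwann cells and less RNA per Schwann cell cannot be told apart.

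The upstream sequences of the genes were read from RefSeq (build GRCm38.p6), in which 6 of the 8 genes matched, with 14 transcription starts, while Mbp and Sox10 had no entry. The 250 bases before each start were searched on both strands. GGAATG, the core motif of the TEAD factors that work with YAP and TAZ in Schwann cells, was present before a start of Mal, Prx, Pmp22 and Egr2, in 4 of the 14 windows, beside 12.6% of all 32851 windows of the same length. ACAAAG, a core SOX motif (16.5% of all windows), and GCGNGGGCG, an EGR motif (4.7%), were in none of the 14. The CArG box, the motif of serum response factor, was searched as well after the sequences had been seen. It stood in 4 of the 14 windows, beside 1.47% of all windows. All 4 are among the 5 Egr2 windows, some of which overlap and share a box, so that there are 2 distinct boxes. A motif picked after seeing the sequences cannot be weighed against that share. A match describes letters, not a bound site. Shown are the 2 Egr2 windows with those boxes, because Egr2 had the largest difference among the 8 genes, and the windows of Prx and Mal, whose log2 ratios were nearly equal. Capitals mark GGAATG (or CATTCC, the same on the other strand) and the CArG box.
Egr2 at chr10:67537316-67537565, plus strand: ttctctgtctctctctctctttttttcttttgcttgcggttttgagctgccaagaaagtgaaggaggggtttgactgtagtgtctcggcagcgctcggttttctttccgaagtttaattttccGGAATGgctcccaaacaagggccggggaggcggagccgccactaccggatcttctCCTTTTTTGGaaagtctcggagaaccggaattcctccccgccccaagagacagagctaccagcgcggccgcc
Egr2 at chr10:67537619-67537868, plus strand: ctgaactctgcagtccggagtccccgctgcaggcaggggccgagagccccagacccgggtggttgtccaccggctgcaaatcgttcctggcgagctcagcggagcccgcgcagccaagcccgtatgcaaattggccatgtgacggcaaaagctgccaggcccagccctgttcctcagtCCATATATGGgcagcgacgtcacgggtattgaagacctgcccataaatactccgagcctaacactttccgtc
Prx at chr7:27499074-27499323, plus strand: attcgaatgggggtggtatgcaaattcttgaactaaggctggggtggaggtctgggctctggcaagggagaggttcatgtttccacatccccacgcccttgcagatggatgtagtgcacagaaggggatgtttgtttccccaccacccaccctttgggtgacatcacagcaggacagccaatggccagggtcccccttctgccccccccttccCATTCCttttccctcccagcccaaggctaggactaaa
Mal at chr2:127656696-127656945, minus strand: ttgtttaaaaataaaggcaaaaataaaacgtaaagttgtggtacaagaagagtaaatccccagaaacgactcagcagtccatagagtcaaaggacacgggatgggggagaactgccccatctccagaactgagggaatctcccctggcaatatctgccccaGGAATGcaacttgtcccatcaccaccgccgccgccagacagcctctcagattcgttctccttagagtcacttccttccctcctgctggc
In the Egr2 windows the boxes each begin 72 bases before their start. The motif begins 37 bases before the start in Prx and 89 bases before it in Mal.

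None of the 8 genes was at least 2-fold apart between the arrays, beside 4.34% of all measured genes (2.23% higher and 2.11% lower on the cast array). At 1.5-fold, Egr2 was higher on the cast array and no member was lower, beside 7.05% of all genes higher and 8.24% lower. The log2 ratios ran from -0.50 for L1cam to 0.67 for Egr2, with 3 genes above 0 and 5 below. Over all 15142 genes, 7110 lay above 0 and 8032 below. The median of the 8 was -0.16, beside -0.03 over all genes. The shares of members past a fold are thus near the background. Differences among the members are described below, and whether they exceed those among other genes was not tested.

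**Figure D1:**
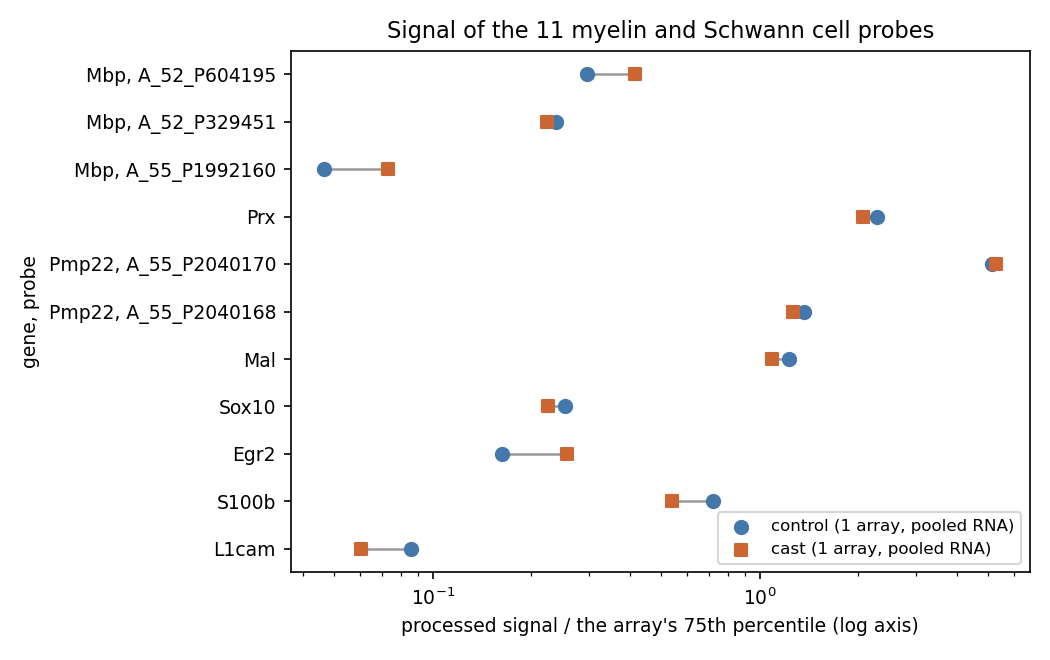
Processed signal of each of the 11 probes on the control array (circles) and the cast array (squares), divided by the array's 75th percentile, on a log axis. A line joins the arrays for one probe, and lengths of lines can be compared, while levels of different probes cannot. The longest lines are those of Egr2 and of 2 Mbp probes, with the cast array higher, and those of L1cam and S100b, with the control array higher.

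Directions depend on the scaling. Without any scaling all log2 ratios lie higher by 0.34, and scaled on the 7 spike-in control transcripts they lie higher by 0.35, the 75th percentile signal being 385 in control and 486 in cast. On those scales 6 of the 8 genes were above 0, beside 12098 (unscaled) and 12224 (spike-in) of all 15142 genes. Egr2 was past 2-fold on both, and Egr2 and Mbp were at least 1.5-fold higher, with no member lower by either fold. Unscaled, 5.51% of all genes were at least 2-fold higher and 0.792% lower, and at 1.5-fold 23.7% were higher and 2.67% lower. On spike-in scaling these shares were 5.7%, 0.779%, 24.5% and 2.59%. The median of the 8 was 0.18 and 0.19 on those scales, beside 0.31 and 0.32 over all genes. Scaling by 1 factor per array moves both medians alike. The same shift moves the gene lists described further on. Unscaled, the medians of the other myelin, regulator, node, perineurial, oligodendrocyte, endothelial, T cell, adipocyte and muscle fibre lists, all below 0 after 75th percentile scaling, were above 0. A difference between the log2 ratios of 2 members does not depend on a scaling by 1 factor per array, and the members are set against each other below. Each value carries a spot-level SD, the scatter of a log2 ratio seen between repeated spots of a probe at that brightness. It covers neither mice nor hybridisations, and each member probe had 1 spot.

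Mbp encodes the basic protein that holds the cytoplasmic faces of compact myelin together, and the same gene also gives longer transcripts from an upstream start, known as golli, which immune cells and neurons make as well. The brightest of its 3 probes had a processed signal of 114 in control and 201 in cast, a log2 ratio of 0.48 ± 0.10 (spot-level SD) and a fold of 1.40. The dimmest probe had signals of 17.9 and 35.4, for a log2 ratio of 0.64 ± 0.16. The remaining probe had 91.9 and 109, for a log2 ratio of -0.09 ± 0.16. Its value was thus lower by 0.57 than that of the brightest probe and by 0.73 than that of the dimmest, which is 3.0 and 3.2 times the spot-level SD of those differences.

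The 3 Mbp probes list overlapping sets of transcripts. The brightest (A_52_P604195) is annotated to transcript variant 8 and lists only that RefSeq transcript. The dimmest (A_55_P1992160), which lies farthest upstream, lists variant 8 and variant 7. The third (A_52_P329451) lists variant 7 and 3 further RefSeq transcripts that neither of the others lists, and it lies 50.8 kb downstream of the most upstream probe, spanning 2305 bases of genome with 60 bases of probe. So the most downstream probe, the only one with transcripts of its own, differed by less than its spot-level SD, while both probes that list variant 8 were higher on the cast array. The 2 probes that list variant 7 disagreed, at 0.64 and -0.09. Of the 474 genes measured by 3 probes, 56 (11.8%) had probe values at least as far apart as the 0.73 of Mbp, and the median range was 0.29. With normexp background correction, which compresses dim signals, the probes gave 0.22, 0.14 and -0.06 in the same order. The gene's value of 0.48 is thus that of a probe which does not list those 3 transcripts. Which of the listed transcripts are golli is not reported here.

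**Figure D2:**
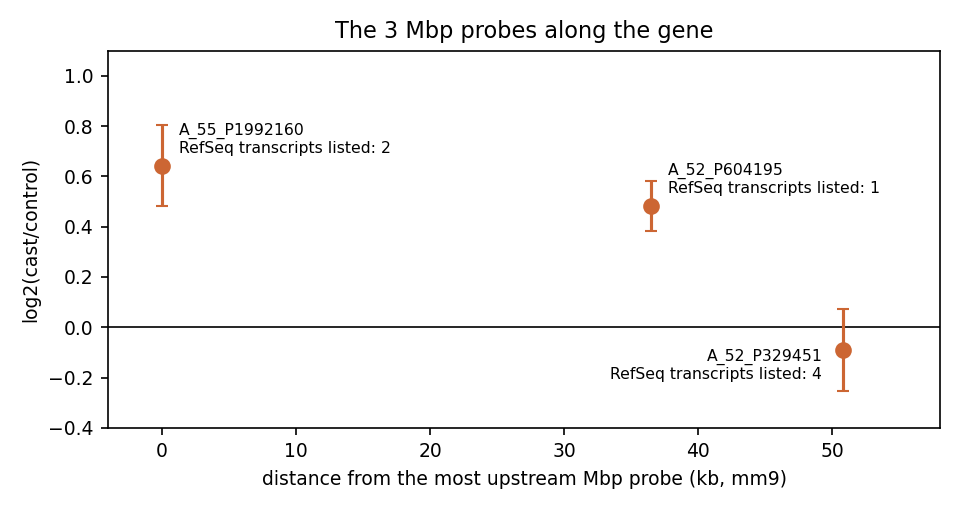
Log2(cast/control) of the 3 Mbp probes against their distance along the gene from the most upstream probe, in kb on mm9, with bars of 1 spot-level SD. The probes at 0 and 36.5 kb lie at 0.64 and 0.48, and the probe at 50.8 kb lies at -0.09.

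Prx, a scaffold protein that links the myelin sheath to the basal lamina through the dystroglycan complex, had a signal of 878 in control and 1004 in cast. After scaling its log2 ratio was -0.14 ± 0.09, and it became 0.19 unscaled and 0.21 on spike-in scaling. Pmp22, a tetraspan protein of compact myelin that fibroblasts also make, had 2 probes. The brighter one had signals of 1974 and 2566 and a log2 ratio of 0.04 ± 0.08. The second Pmp22 probe had 524 and 614, at -0.11 ± 0.09, so that the mean of both probes was -0.03. The Pmp22 probes differed by 0.15, which is 1.28 times the spot-level SD of that difference, and their range is close to the median of 0.16 over the 2934 genes with 2 measured probes.

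Mal, a raft-associated membrane protein of myelin, of epithelia and of T cells, had signals of 471 and 529 and a log2 ratio of -0.17 ± 0.09. The scaled level of Mal was thus 1.12-fold lower on the cast array, and it turned to 0.17 with no scaling. Of 7 T cell markers on the array 3 were measured, with a median of -0.13, Cd3e at 0.31 and a summed scaled level of 2.01 in control and 2.07 in cast. Cd4, at -0.13 with signals of 467 and 538, makes up the largest part of that sum. The part of T cells in the Mal signal was not tested.

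Among the regulators, Sox10 had a signal of 97.4 in control and 110 in cast. Its log2 ratio of -0.17 ± 0.16 was about as large as its spot-level SD, and was 0.17 unscaled and 0.18 on spike-in scaling. Prx, Sox10 and Mal lay within 0.03 of each other. No difference among these 3 genes exceeded 0.21 times its spot-level SD, so spot scatter does not separate them.

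Egr2 stood apart from them. Its signal was 62.5 in control and 125 in cast, for a log2 ratio of 0.67 ± 0.16 and a fold of 1.59. Of all measured genes, 5.46% had a higher log2 ratio. Against Sox10, with which it acts in myelination, Egr2 was higher by 0.83, or 3.62 times the spot-level SD of that difference. Egr2 reached 1.0 unscaled and 1.02 on spike-in scaling. With normexp background correction it was at 0.36.

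Egr2 is also an immediate early gene, which many cells including muscle and macrophages induce within minutes of a stimulus. Of 19 immediate early genes other than Egr2, 15 were measured, all 15 were above 0 under each scaling and background setting applied to the list, 8 were at least 1.5-fold higher, beside 7.05% of all genes, and 5 at least 2-fold higher, beside 2.23%. The other 7 were under 1.5-fold, among them Jund at 0.11, Dusp1 at 0.14 and Nr4a1 at 0.19. The 1.5-fold and 2-fold counts were 6 and 3 with normexp, and 12 and 8 unscaled. The median of the 15 was 0.82, and 0.53 with normexp. Fos, an AP-1 subunit, had signals of 178 and 1707 and a log2 ratio of 2.93. Ccn1, a matrix-associated growth regulator, was at 1.38, Fosb at 1.35 (0.92 with normexp), and Egr1, the closest measured relative of Egr2, at 0.92 with signals of 694 and 1660. Egr3 and Egr4 were on neither array well above background. The corepressors of EGR proteins, Nab1 and Nab2, were at 0.18 and -0.07. Of 8 macrophage markers 6 were measured, with a median of 0.25, Lyz2 at 0.58, Mrc1 at 0.50, Ptprc at 0.49 and Itgam at -0.53, while Cd68 and Cd163 were on neither array well above background. The summed level of the 6 was 20.0 in control and 16.3 in cast after scaling, and 7688 and 7907 unscaled. Such a sum weighs bright probes most, and Itgam, with signals of 5312 and 4634, makes up most of it on both arrays. The part of macrophages and other cells in the Egr2 value was not tested.

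**Figure D3:**
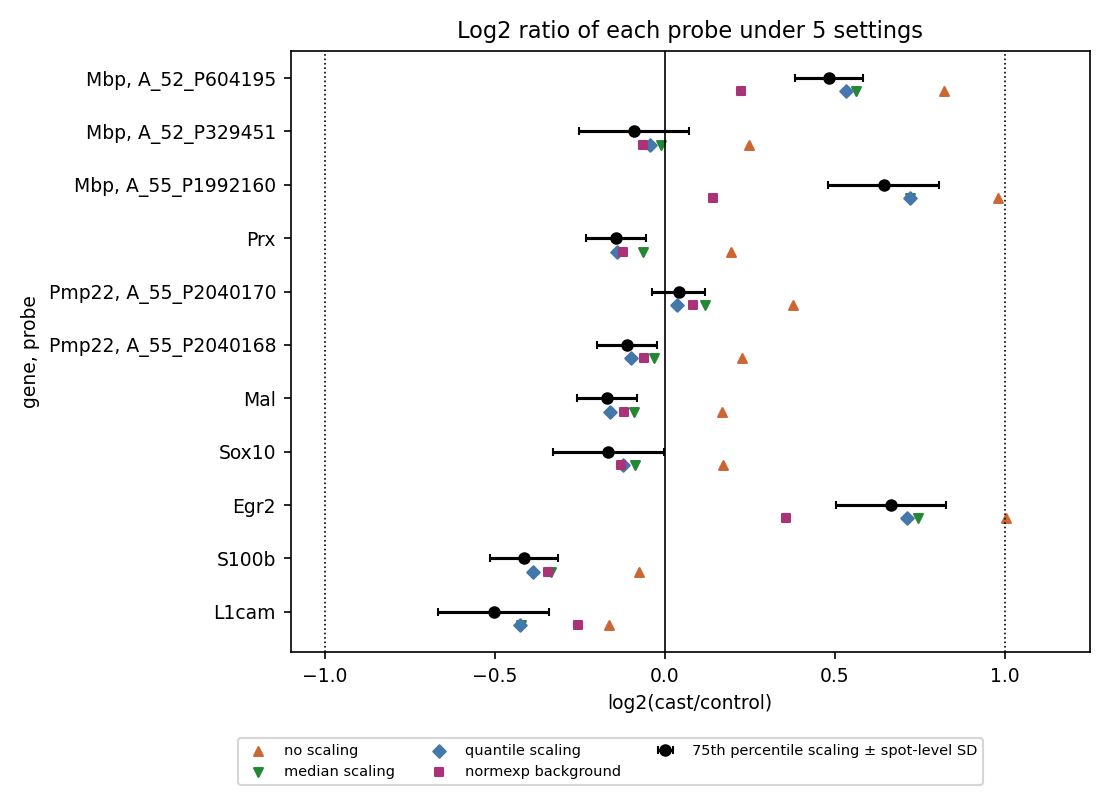
Log2(cast/control) of the 11 probes with 75th percentile scaling (black circles, bars of 1 spot-level SD) and with no scaling, median scaling, quantile scaling and normexp background correction (coloured marks). Dotted lines mark 2-fold. The values without scaling lie 0.34 to the right throughout, and normexp moves the dim probes of Egr2, Mbp and L1cam towards 0.

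S100b is a calcium-binding protein used to stain both myelinating and terminal Schwann cells, and adipocytes make it too. Its signal was 277 in control and 262 in cast, one of 2 members whose raw signal was lower with the cast. The log2 ratio was -0.41 ± 0.10, a fold of 1.33 lower, and stayed below 0 at -0.08 unscaled and -0.06 on spike-in scaling. S100b was lower than Pmp22 by 0.45, or 3.58 times the spot-level SD, and lower than Prx by 0.27, or 2.02 times it. Of 8 adipocyte markers 7 were measured, with 6 below 0, a median of -0.18 and Retn, the largest difference, at 0.86. Their summed scaled level was 98.4 in control and 87.9 in cast, in units of the 75th percentile. Unscaled, 5 of the 7 were above 0, and the sum was 37830 in control and 42741 in cast. Fabp4, with signals of 21190 and 23609, and Cfd, with 13339 and 15180, make up most of the sum on both arrays. The part of adipocytes in the S100b value was not tested. Its relative S100a4, a protein of fibroblasts and leukocytes, was 2.66-fold higher at 1.41, and S100a1, the form of muscle fibres, was at -0.09.

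L1cam, an adhesion protein of axons and of unmyelinating Schwann cells, was dim. Its signals of 32.9 and 29.4 were 2.52 and 1.44 times the lowest signal called well above background on the respective array. The log2 ratio of -0.50 ± 0.16 corresponds to a fold of 1.42 lower, and it was -0.26 with normexp and -0.16 with no scaling. Its relative Chl1, also dim, went the other way, with signals of 25.5 and 53.5 and a log2 ratio of 0.73, which was 0.12 with normexp. The further L1 family members Nrcam and Nfasc were at 0.11 and -0.18, and Nrcam turned to -0.03 with normexp.

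Over the 28 pairs among the 8 genes, 15 differed by at least 2 spot-level SDs and 5 by less than 1. Pairs of other genes were not counted, so the counts do not set the members apart from other genes. Egr2 and the brightest Mbp probe formed the upper end, 0.18 apart or 0.95 spot-level SDs. L1cam and S100b formed the lower end, 0.09 apart. The widest gap, between Egr2 and L1cam, was 1.17. These counts rest in part on the probe that stands for Mbp and on the background correction, as alternatives added after seeing the data show. With the most downstream Mbp probe in its place, 10 pairs differed by at least 2 spot-level SDs and 8 by less than 1. With normexp the counts were also 10 and 8, and the widest gap was 0.70, between Egr2 and S100b.

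**Figure D4:**
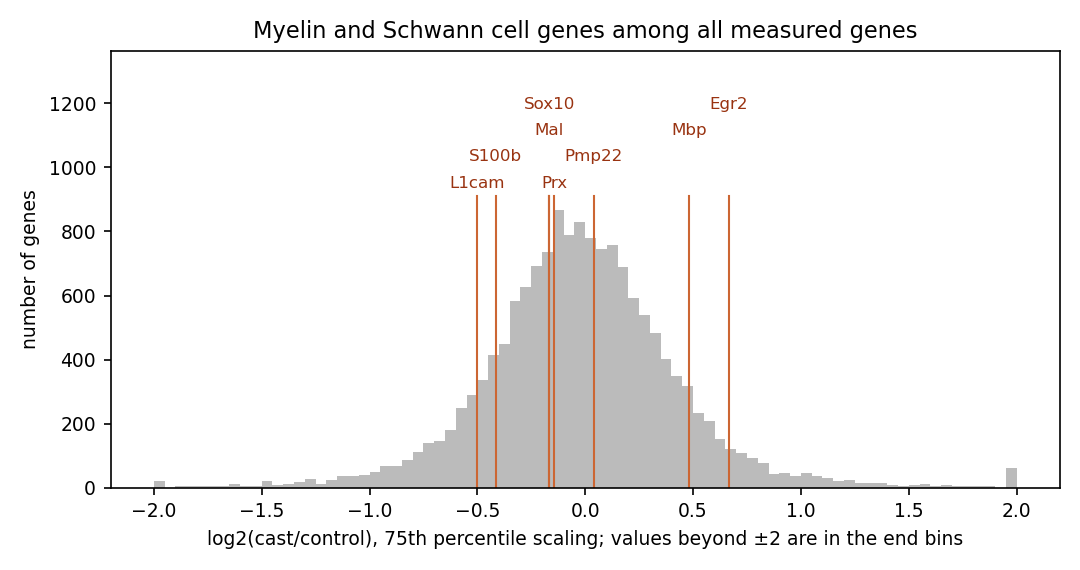
Number of genes by log2(cast/control) over all 15142 measured genes (grey bars, 0.05 wide), with the 8 members as lines. Egr2 and Mbp lie on the right flank, L1cam and S100b on the left flank, and Pmp22, Prx, Sox10 and Mal near the centre.

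Of 18 listed myelin proteins and lipid enzymes, 17 were on the array and 14 measured. None was 1.5-fold apart in either direction (1 was higher by that much on spike-in scaling), 12 were below 0 and 2 above, and the median was -0.26. With no scaling the median was 0.08 and 11 of the 14 were above 0. Of all 15142 genes, 8032 were below 0 after scaling and 12098 above 0 unscaled. Mag, the adhesion protein facing the axon, was at -0.25. Drp2, the dystrophin-related partner of Prx, was the lowest at -0.54, while its second probe gave -0.20. Ugt8a, the enzyme that makes the myelin galactolipids, was at -0.42. Gjb1, a gap junction protein of Schwann cells, was at -0.27. Pmp2 and Dusp15 were on neither array well above background. Gal3st1 was so on the control array only, with signals of 17.5 and 15.3 and the scaled level at least 1.09-fold lower on the cast array. That bound rests on the scaling, since 17.5 is below the lowest signal so called on the cast array. The lowest signal so called was 13.1 in control and 20.3 in cast, so dim genes drop out more easily on the cast array.

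Of 18 regulators and receptors of Schwann cells, 13 were measured and none was 1.5-fold apart (1 was higher by that much unscaled), with 3 above 0 and a median of -0.09. Yy1, a general transcription factor, was at 0.34, Adam22 at -0.40, and Dag1, the dystroglycan that Prx and Drp2 attach to and that muscle fibres also make, at -0.39. Pou3f1, an activator of Egr2, was at -0.09. Erbb3, the Schwann cell receptor for neuregulin, had signals of 9.95 and 14.6 and lay on neither array well above background.

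Genes of unmyelinated, immature and injury-activated Schwann cells were mostly not detectable at these signals, with 7 of 18 measured and a median of 0.25. That median was 0.10 with normexp and 0.59 unscaled, the latter beside 0.31 over all genes. Gdnf, a survival factor for motor neurons that both muscle and Schwann cells make, had signals of 29.1 and 193 giving a log2 ratio of 2.39, or 5.24-fold higher with the cast, and 2.56-fold higher with normexp. Artn, another ligand of that family, was 1.92-fold higher, and 1.24-fold with normexp. Jun, also counted among the immediate early genes above, was at 0.58. The neurotrophin receptor Ngfr was at 0.25. Ncam1 was at -0.04 on its brightest probe and at 1.32 on another of its 3 measured probes. Gfap, Sox2, Shh and Olig1, which mark such Schwann cells more narrowly, were on neither array well above background. Gap43, also dim, was so on the control array only, with signals of 25.1 and 19.2. Its scaled level was at least 1.56-fold lower on the cast array, a bound that is smaller unscaled.

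At nodes and paranodes, where myelin meets the axon membrane, 11 of 15 genes were measured with a median of -0.18. Cntnap2, of the juxtaparanode, was lowest at -0.96 with signals of 167 and 109. Besides Chl1, Cntnap1, of the paranode, was next at -0.55. Cntn1, also dim, was well above background on the control array only, with the scaled level at least 1.55-fold lower on the cast array. Among 12 axon genes 6 were measured, with 3 above 0 and 3 below. Uchl1, a neuronal ubiquitin hydrolase, was 3.10-fold higher and just under 2-fold, at a log2 ratio of 0.99, with normexp. Thy1, a surface glycoprotein of neurons and stromal cells, was at -1.17, and Ina was at -0.51. The neurofilament genes Nefl, Nefm and Nefh were on neither array well above background. Among perineurial and endoneurial genes 10 of 11 were measured, with a median of -0.11, Lypd2 at -0.74 (-0.45 with normexp) and Moxd1 at -0.37. The Schwann cell signal Dhh was at 0.13. In the Pmp22 family Emp1 was at 0.61, Emp2 at -0.15 and Emp3 at 0.07, and in the SoxE family Sox9 was at -0.09 while Sox8 was on neither array well above background.

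**Figure D5:**
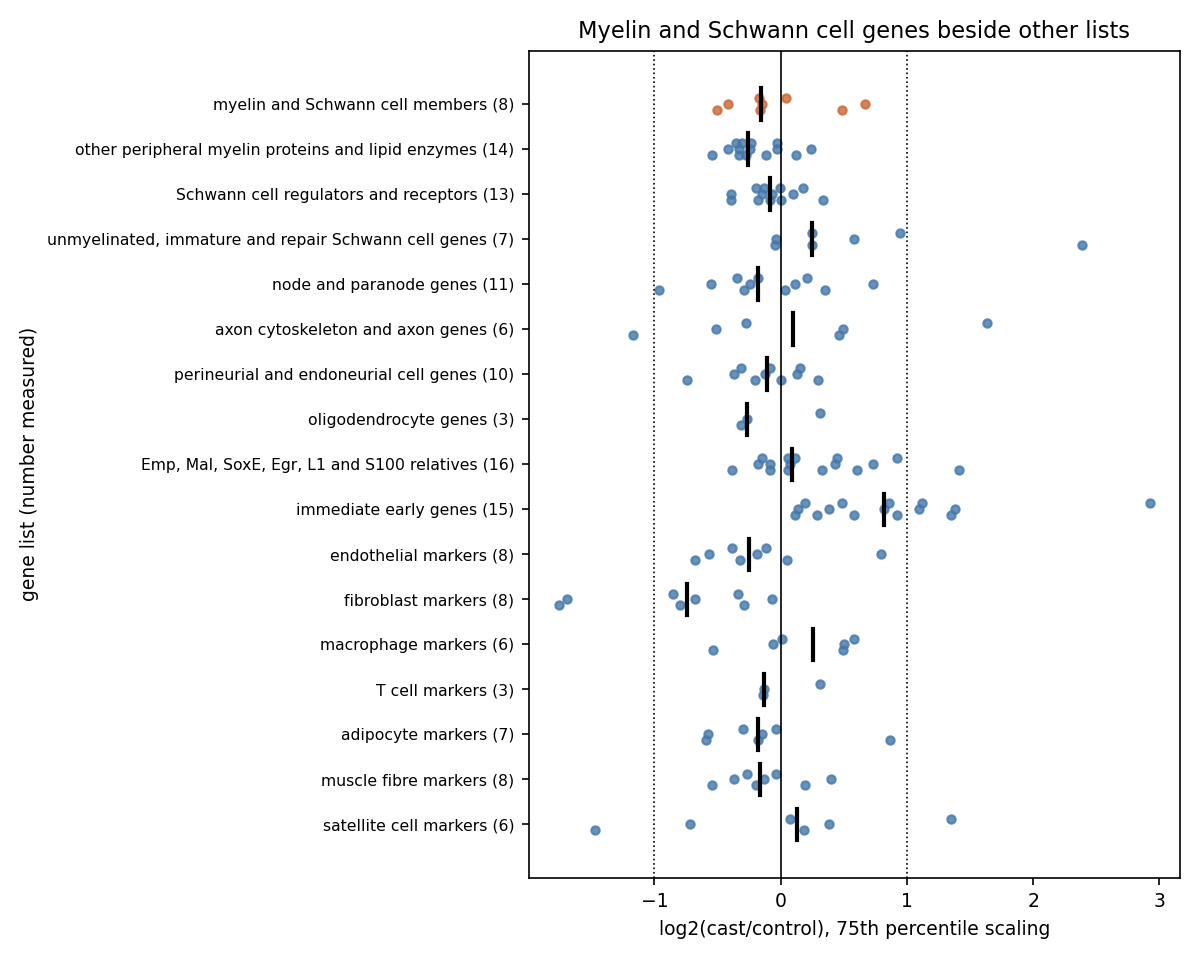
Log2(cast/control) of each measured gene (points) by gene list, with the list's median as a black bar and 2-fold as dotted lines. The number measured stands beside each name. The immediate early genes lie wholly to the right of 0 with a median of 0.82 and the fibroblast markers, of which 2 turn above 0 without scaling, wholly to the left with a median of -0.74, while the members and other myelin genes lie around -0.16 and -0.26.

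Markers of other cell types were set beside these values. All 8 muscle fibre markers were measured, with Acta1, the skeletal actin, at 247802 in control and 214739 in cast, a median log2 ratio of -0.16 and 2 of 8 above 0. All 8 fibroblast markers were below 0, with a median of -0.74, Col1a1 at -1.76, Col1a2 at -1.70 and Pdgfra at -0.07. Unscaled, 2 of those 8 were above 0, and on spike-in scaling 3 were. Their summed level was 240 in control and 144 in cast after scaling, and 92444 and 69783 unscaled. Dcn (-0.29), with signals of 43045 and 44384, and Col1a2, with 26387 and 10295, make up most of the sum on both arrays. Pmp22, which fibroblasts share, was at 0.04. All 8 endothelial markers were measured, at a median of -0.25. Of 9 genes of oligodendrocytes, the myelin-forming glia of the brain, 3 were measured. Ermn was at 0.31 on its brighter probe and at -0.11 on its other, Mog at -0.31 and Mobp at -0.27. The other oligodendrocyte genes, Opalin and Olig2 among them, were on neither array well above background. Of 8 satellite cell markers 6 were measured, with a median of 0.13, Cdh15 at 1.35 and Chrdl2 at -1.47 (-0.98 with normexp). The part of any of these cells in the values of the 8 genes was not tested.

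The probe positions are given on mm9, the build of the array design, without gene models, so exon and untranslated parts were not looked up. On chromosome 10, the Egr2 probe covers 67004798 to 67004857 and the S100b probe 75723783 to 75723842. Prx is covered on chromosome 7, 28304999 to 28305058, Mal on chromosome 2, 127458976 to 127459035, and Sox10 on chromosome 15, 78985518 to 78985577. L1cam is covered on chromosome X, 71100374 to 71100433. The Pmp22 probes cover chromosome 11, 62972989 to 62973048 (the brighter) and 62971862 to 62971921. The Mbp probes, in the order along the gene, cover chromosome 18, 82691469 to 82691528, 82727929 to 82727988 and 82742266 to 82744570.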

How the data were processed

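Single-colour Agilent arrays of total RNA from 2 pools, control and cast, were used. Per the file headers, the deposited processed intensity of a spot is background-subtracted and detrended within the array and not normalised between arrays. The submitters' processing notes name Agilent Feature Extraction 9.5. The deposited series table holds the same intensity over the 75th percentile of each array times a constant, partly rounded (column medians 9.00 for control and 8.70 for cast).

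Here log2 processed signals were averaged per probe, without control spots and spots flagged as non-uniform, and scaled by subtracting each array's 75th percentile (385 and 486). A probe was detected when over 0.5 of its spots were well above background. A gene took its brightest detected probe. Names came from RefSeq accessions for 26048 of 39429 probes, otherwise from the array. No probe was saturated, and 60.6% of probes were detected in control and 56.8% in cast. The spot-level SD came from 259 replicated probes in 4 brightness classes, from 0.16 (dimmest) to 0.08. For a gene well above background on 1 array, the bound sets its scaled signal against the lowest such signal on the other array. That lowest signal is no ceiling for spots not so called, as Kcna2 was not so called on the cast array at 23.2. Named were all 8 genes with every probe, and of other lists up to 3 measured genes with the largest absolute log2 ratio and measured close relatives of the 8, while further genes were named after their values were seen. Some genes of the other lists are counted but not reported by name here. The genes and lists were chosen with earlier results of these data known. Normexp used limma 3.58.1 (offset 50). The scaling code was tested on simulated data.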

Additional observations from a re-analysis of the deposited data

How the results depend on the processing

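Of the 8 genes, 3 lay at or above the median level of measured genes. No gene was 2-fold apart under median or quantile scaling, scaling on detected probes, normexp, the deposited series table or the mean of probes, whereas 1 (Egr2) was when unscaled and 1 (Egr2) on spike-in scaling. The median log2 ratio of the 8 was 0.18 unscaled and 0.19 on spike-in scaling, settings that move every gene by construction. It kept its sign under the other settings, from -0.16 to -0.08. Of 58 values of single genes that these settings could move, 37 moved by less than their spot-level SD. The filters on dim probes cannot move these, since all 11 probes passed detection on both arrays. No replicate could be left out. No paired analysis was possible because each group has 1 array. Signal over background limits L1cam and the dimmest Mbp probe most.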
